A study of Danio rerio with 18 samples.

Results

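The genes described here encode the proteasome, the protease that degrades ubiquitin-tagged proteins. They were chosen by name: every gene of the deposited count table whose symbol starts with psm, a letter from a to g and a digit, provided that it also has a row in the deposited comparison tables. This gave 51 genes of the 17135 with comparison values. Another 6 of the 57 genes that match the name have no row there and were not analysed. They are psmb8a, psmb11a, psmb11b, psmb13a, psme1 and psme2, which encode tissue-restricted or inducible catalytic subunits and the paired activator subunits. Of the 51 genes, 49 encode subunits, assembly factors, activators or an inhibitor of the proteasome. The other two carry a proteasome name only as partners: psmc3ip encodes a meiotic recombination factor that was first found as a binding partner of a proteasome ATPase, and psme3ip1 encodes a binding partner of the nuclear activator.

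Newly made RNA was measured in whole wild type zebrafish embryos at the 256-cell and the 1024-cell stage by enriched SLAM-seq, in which RNA that has taken up s4UTP is captured and its modified bases are converted chemically. Embryos of the untreated groups received s4UTP alone, those of the MiR430 groups s4UTP with MiR430 miRNA, and those of the CDK9 groups s4UTP with cdk9 mRNA, so every group carried the label and all libraries used here were treated with IAA. With 3 conditions at each stage and 3 biological replicates of each, there were 6 groups and 18 libraries. MiR430 is a microRNA family made at genome activation, and CDK9 is the kinase of P-TEFb, which releases paused RNA polymerase. A control mRNA or control microRNA was given to no group, and the labels do not say how many embryos made up a library. By its title, the series concerns how transcription bodies that hold CDK9 bear on gene expression.

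The proteasome has a barrel-shaped core and a cap. The core is made of outer alpha rings, which gate the entry, and inner beta rings, where a few subunits carry the proteolytic sites. The cap, or regulatory particle, has a base with a ring of ATPases (psmc genes) that unfold substrates, and a lid with a deubiquitinase (both built from psmd genes as well). Alternative activators (psme genes) and an inhibitor (psmf1) can bind the core in place of the cap. In early embryos the maternal supply covers such housekeeping proteins, and the proteasome is known for clearing maternal proteins and cell cycle regulators. Roles of single subunits given below are those known from yeast and human.

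All values come from 4 tables in which the authors compared each injected group with the untreated group of its stage. The names of the 18 count columns match none of the sample labels, so values of single libraries were not used and no gene is given per library. The sources used here do not say whether the counts hold all reads or only reads with converted bases. How much of the counts came from RNA without the label, such as maternal RNA, was not tested. The mean normalized count, which measures the depth behind a gene, is the authors' mean over all libraries, injected groups included. It is the same in the 4 tables. Log2 fold changes, with a standard error (SE), are estimates of the authors that look shrunken towards 0, judged from their values, and a gene is said to rise or fall where the deposited adjusted p is under 0.05. The deposited p-values do not follow from these log2 fold changes over their SEs. An SE as large as the change is therefore no measure of how firm a call is. The p-values rest on 3 biological replicates per group. The spread behind them may be pooled over all 6 groups, because the means are the same in the 4 tables. The injected gene, cdk9, rose by 6.79 (SE 0.41) at the 256-cell stage and by 5.88 (SE 0.39) at the 1024-cell stage on the log2 scale per the authors' deposited table. Injected cdk9 mRNA and newly made cdk9 RNA cannot be told apart in these values. Mitochondrially encoded RNA made up 96.8% of the summed mean normalized count, and nuclear genes such as these had low means. In whole embryos, fewer cells that make an RNA and less of it per cell cannot be told apart.

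Proteasome genes were of middling level. Their median was 10.4 normalized counts, against 9.84 over all 17135 genes per the authors' deposited table, and 26 of 51 lay above that median. A mean of at least 10 was reached by 26 of them, a mean of at least 20 by 12 and a mean of at least 50 by 2. Per kb of exon, which takes only exon length into account, the median was 5.61 normalized counts, against 4.46 over all genes per the authors' deposited table. The genes lay on 21 chromosomes or scaffolds, with at most 7 on one. Each had at least 3 merged exons, whereas 4.27% of all genes had 1. Their exons summed to a median of 1456 bases, against 2379 for all genes.

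The nuclear activator gene psme3, whose product opens the core without ubiquitin, had the highest level. It had a mean of 130.3 normalized counts and 67.8 per kb per the authors' deposited table. The lid gene psmd6 followed with 64.2 normalized counts and 44.9 per kb per the authors' deposited table. All 49 other genes lay under 50 normalized counts. The partner gene psmc3ip, with 32.7 per kb, came next by level per kb per the authors' deposited table, ahead of the core gene psmb4 with 19.7. These levels carry no error, because the deposited mean has none, and how far they hold maternal RNA was not tested.

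Genes whose products take part in one ring did not have one level. In the alpha ring, psma5 had 14.7 and psma6b 12.3 normalized counts per kb, while psma4 had 1.86 and the paralog psma6l 1.73 per the authors' deposited table. In the constitutive beta ring, psmb4 had the highest level (19.7 per kb) and psmb6, which encodes the caspase-like catalytic subunit, the lowest (3.01 per kb) per the authors' deposited table. The genes of the other catalytic subunits, psmb5 (chymotrypsin-like) and psmb7 (trypsin-like), had 14.1 and 14.9 per kb per the authors' deposited table. The highest level was 8.49 times the lowest in the alpha ring, 6.56 times in the beta ring and 3.30 times among the ATPases. In the lid it was 35.1 times, owing to psmd6 at the top and psmd13 (1.28 per kb) at the bottom per the authors' deposited table. The base genes psmd1, psmd2, psmd4a and psmd4b, which encode the scaffold and a ubiquitin receptor, lay within 1.46 times of each other, from 7.32 to 10.7 per kb per the authors' deposited table.

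Genes of the inducible beta kind, which in mammals replaces the constitutive catalytic subunits in immune tissue, were near the bottom. The thymic genes psmb11a and psmb11b had no comparison values. The genes psmb10, psmb12 and psmb9a had 2.49, 0.978 and 0.475 normalized counts per the authors' deposited table. The genes psmb12 and psmb9a lie side by side on chromosome 19 (7115223 to 7119456 and 7120380 to 7122373 in GRCz11), within the annotated spans of psmb8a and psmb13a, which have no comparison values. None of psmb10, psmb12 and psmb9a kept an adjusted p in any comparison. The assembly factor genes psmg1 and psmg3, which help build the alpha ring, were similarly low, with 1.70 and 1.82 normalized counts per the authors' deposited table.

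**Figure D1:**
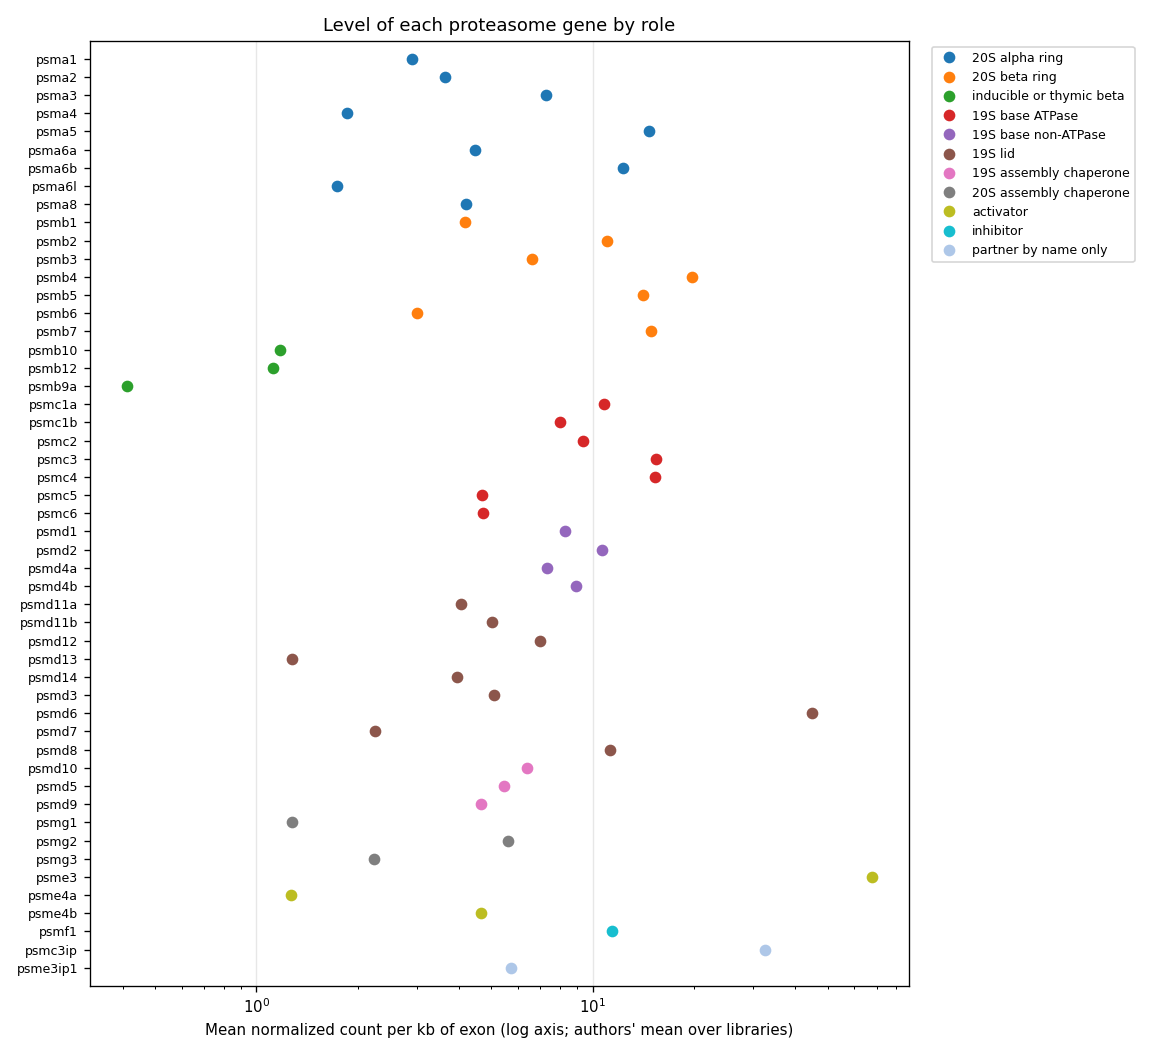
Level of each of the 51 proteasome genes per the authors' deposited table, as mean normalized count per kb of exon on a log axis; each point is one gene and the colour gives its role. The activator gene psme3 (67.8) and the lid gene psmd6 (44.9) stand to the right, and the inducible beta gene psmb9a (0.412) is lowest.

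The comparison at the 1024-cell stage, the later stage measured, asked how extra CDK9 changes new RNA. Of 51 proteasome genes 3 rose, 0 fell and 40 were tested without passing, while 8 had no adjusted p. The share of risen genes was 6.98% of the 43 tested, beside 5.89% of all 11724 genes tested, so it lay near the background. The share fallen over all genes was 0.461%. At an unadjusted p under 0.05, 7 of 51 lay above 0, or 13.7% beside 9.83% of all genes with a p. Below 0 lay 1 of 51, beside 468 of all 16996 genes with a p. Among the genes tested, the median log2 fold change was 0.17 for the proteasome genes and 0.04 for all genes per the authors' deposited table. With untested genes included, the medians were 0.07 and 0.05.

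The gene psmb2 encodes a constitutive beta subunit without proteolytic activity. It lies on chromosome 19 (47394270 to 47423628, plus strand, 7 merged exons in GRCz11) and had a mean of 18.1 normalized counts. It rose by 3.25 on the log2 scale, or 9.53-fold (adjusted p = 0.000293, SE 0.74), per the authors' deposited table. This was the largest log2 fold change of the 51 genes at this stage, and the only one past the authors' stricter call of an adjusted p under 0.01 with an absolute log2 fold change above 2.

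The gene psmc4 encodes one of the cap's ATPases. It lies on chromosome 16 (41794715 to 41805240, minus strand, 12 merged exons) with a mean of 30.4 normalized counts, and rose by 2.30 on the log2 scale, or 4.94-fold (adjusted p = 0.0141, SE 0.89), per the authors' deposited table. The gene psma6b encodes an alpha ring subunit. It lies on chromosome 20 (16884386 to 16906767, minus strand, 8 merged exons) with a mean of 14.9 normalized counts, and rose by 2.42, or 5.34-fold (adjusted p = 0.0452, SE 1.67), per the authors' deposited table. Its SE is more than that of psmb2 and psmc4, and its call was lost without a filter on low means and with statistics recentred on their median (adjusted p = 0.0655 and 0.0755). Exons of psma6b share 148 bases with nfkbiaa on the opposite strand, and nfkbiaa had a log2 fold change of 0.32 (adjusted p = 0.678) per the authors' deposited table. The libraries were made with a stranded kit, per the labels' protocols.

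Beside these 3, the values at an unadjusted p under 0.05 came from different parts of the particle. The lid gene psmd3 had a log2 fold change of 1.59 (adjusted p = 0.0922, SE 1.20), the ATPase gene psmc2 one of 1.43 (adjusted p = 0.141, SE 1.40) and the base scaffold gene psmd2 one of 1.36 (adjusted p = 0.117, SE 1.12) per the authors' deposited table. The beta ring gene psmb3 had a log2 fold change of 1.32 (adjusted p = 0.158, SE 1.34) per the authors' deposited table. The alpha ring gene psma3 was the 1 gene of the 51 below 0 at an unadjusted p under 0.05, with -1.21 (adjusted p = 0.138, SE 1.07) per the authors' deposited table. None of these 5 passed.

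**Figure D2:**
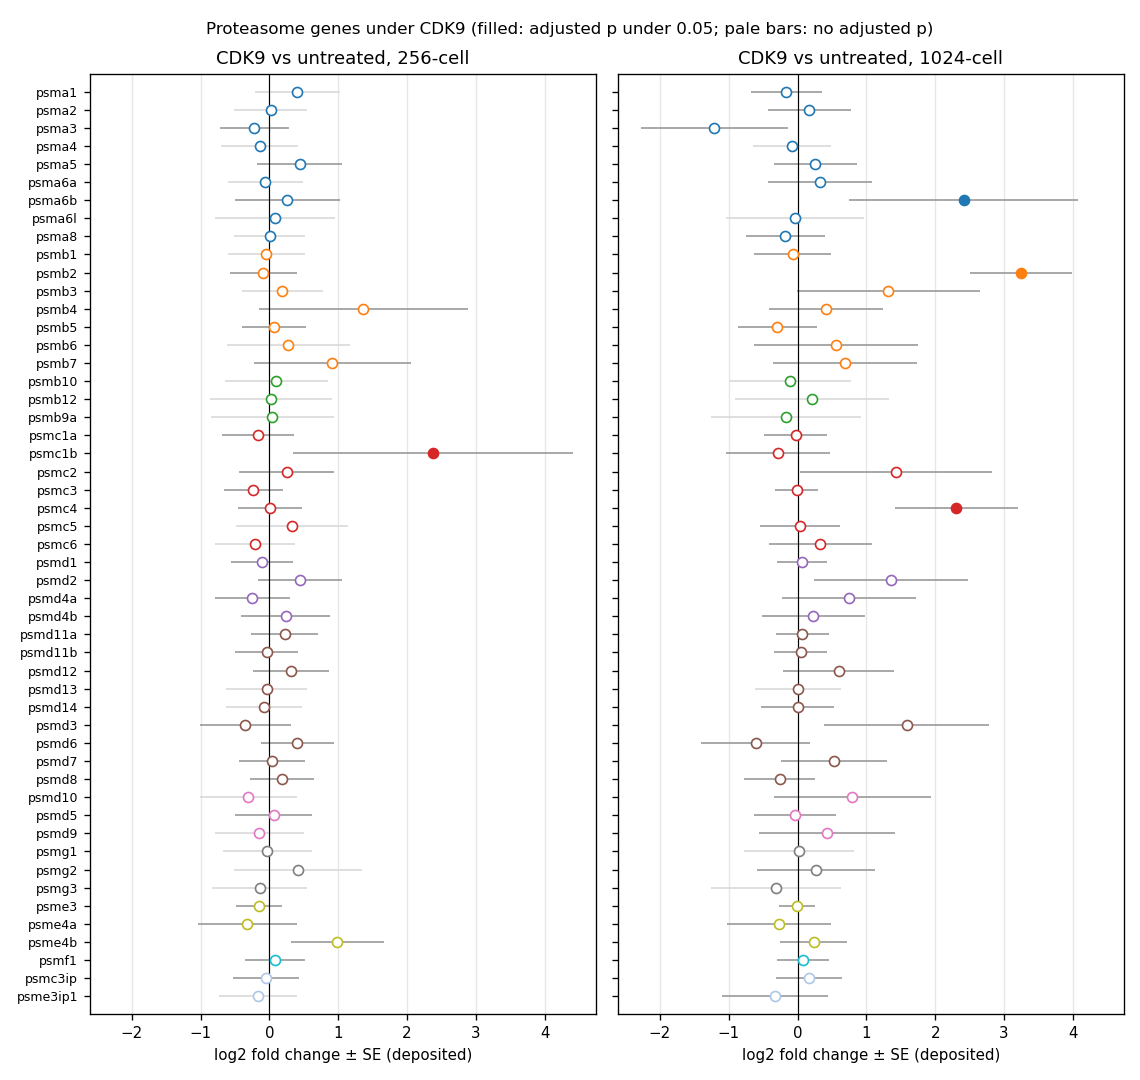
Deposited log2 fold change of each of the 51 proteasome genes under CDK9 against untreated embryos, at the 256-cell stage (left) and the 1024-cell stage (right). Points are ordered and coloured by role, bars are ± 1 SE, filled points have an adjusted p under 0.05 and pale bars mark genes with no adjusted p; psmc1b is filled on the left, and psma6b, psmb2 and psmc4 on the right.

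By role, the 3 rises at the 1024-cell stage under CDK9 were in the alpha, beta and ATPase rings. Each ring had 1 rise among 7 genes tested, and 5.89% of all genes tested rose. The alpha ring holds 9 of the genes, of which 2 had no adjusted p. In the lid 0 of 8 tested genes passed and 1 had no adjusted p. Log2 fold changes there ran from -0.60 for psmd6 to 1.59 for psmd3 per the authors' deposited table. In the base outside the ATPases 0 of 4 passed, with values from 0.07 for psmd1 to 1.36 for psmd2 per the authors' deposited table. Assembly factors of the cap (psmd5, psmd9, psmd10) and of the core (psmg1, psmg2, psmg3), activators, the inhibitor gene and the partner genes had 0 calls. Among the core assembly factors only psmg2 had an adjusted p. The most abundant gene, psme3, had a log2 fold change of -0.01 with the smallest SE of the 51 genes (0.26, adjusted p = 0.985) per the authors' deposited table. The log2 fold change was smaller than its SE in 44 of the 51 genes.

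Genes of the same ring had unlike values. In the beta ring, psmb2 rose by 3.25, while psmb5 had a log2 fold change of -0.29 (adjusted p = 0.584, SE 0.57) and psmb1 one of -0.07 (adjusted p = 0.937, SE 0.56) per the authors' deposited table. Among the ATPases, psmc4 rose by 2.30, while psmc3, of similar level, had -0.01 (adjusted p = 0.985, SE 0.31) per the authors' deposited table. Differences between genes were not tested, because values of single libraries were not used.

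**Figure D3:**
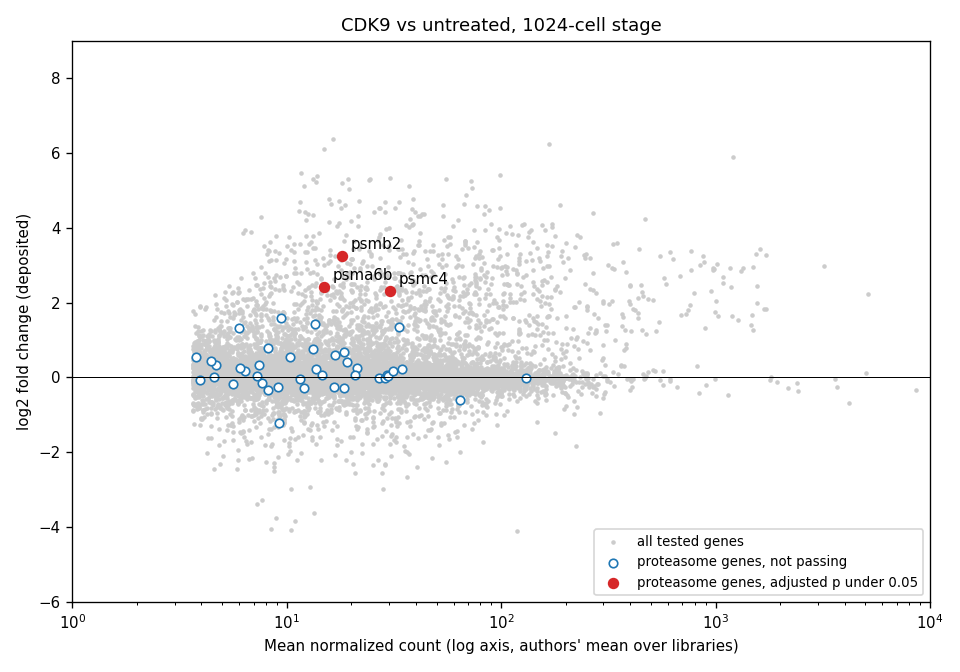
Deposited log2 fold change under CDK9 against untreated embryos at the 1024-cell stage by mean normalized count (log axis), for 11707 of the 11724 tested genes in grey; 17 lie outside the axes. Proteasome genes that did not pass are open circles spread about 0, and the 3 that rose (psmb2, psma6b and psmc4) are red, with grey points at like values around them.

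At the 256-cell stage, the earlier stage measured, the same comparison had fewer proteasome genes with an adjusted p. Of 51 genes 1 rose, 0 fell, 28 were tested without passing and 22 had no adjusted p. The 1 of 29 tested genes that rose makes 3.45%, beside 5.04% of all 9124 genes tested, and 0.373% of all genes fell. Recentring the statistics on their median changes the split over all genes from 460 risen and 34 fallen to 302 risen and 65 fallen. At an unadjusted p under 0.05, 4 of 51 genes lay above 0, or 7.84% beside 7.98% of all genes with a p. Below 0 lay 0 of 51, beside 347 of all 16996 genes with a p.

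The gene that rose was psmc1b, an ATPase gene on chromosome 20 (16721933 to 16740957, plus strand, 11 merged exons) with a mean of 12.03 normalized counts. It rose by 2.37 on the log2 scale, or 5.18-fold (adjusted p = 0.031, SE 2.03), per the authors' deposited table. The SE is close to the size of the change, but the deposited unadjusted p of 0.00135 does not follow from their ratio. The call was lost without a filter on low means (adjusted p = 0.0576) and with recentred statistics (adjusted p = 0.0771). At the 1024-cell stage the same gene had a log2 fold change of -0.29 (adjusted p = 0.693, SE 0.75) per the authors' deposited table. The other 3 genes at an unadjusted p under 0.05 were the beta ring genes psmb4 and psmb7 and the activator gene psme4b. Their log2 fold changes were 1.37 for psmb4 (adjusted p = 0.0789, SE 1.52), 0.91 for psmb7 (adjusted p = 0.142, SE 1.14) and 0.99 for psme4b (adjusted p = 0.0794, SE 0.67) per the authors' deposited table.

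The genes that rose at the 1024-cell stage were near 0 at the 256-cell stage. At the earlier stage psmb2 had a log2 fold change of -0.09 (adjusted p = 0.896, SE 0.48), psmc4 one of 0.01 (adjusted p = 0.995, SE 0.47) and psma6b one of 0.26 (adjusted p = 0.572, SE 0.76) per the authors' deposited table. The stages use different embryos, so the difference of the log2 fold changes was tested over their combined SE for all 16996 genes with a p. The difference for psmb2 was 3.34 (SE 0.88, unadjusted p = 0.000156), and it did not pass over all genes (adjusted p = 0.115). For psmc4 it was 2.30 (unadjusted p = 0.0226, adjusted p = 1, SE 1.01) and for psmc1b -2.66 (unadjusted p = 0.22, adjusted p = 1, SE 2.17). For psma6b the difference was 2.16 (adjusted p = 1, SE 1.83). Of 51 genes 0 passed this test between the stages, beside 0.0353% of all genes higher and 0.053% lower at the 1024-cell stage. The test is approximate if the estimates are shrunken, and the deposited p-values do not follow from these log2 fold changes over their SEs. It was conservative beside signed z statistics, as the shares below show. That 0 genes passed therefore does not show that the stages were alike. At an unadjusted p under 0.05 there were 2 of 51 genes, psmb2 and psmc4, beside 1.91% of all genes. With the difference of signed z statistics in its place, there were 7 of 51, psmc1b among them, beside 5.996% of all genes. The adjusted p was then 0.124 for psmb2 and 0.371 for psmc1b, whose unadjusted p went from 0.22 to 0.0027.

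Under MiR430 at the 1024-cell stage, 1 of 51 proteasome genes rose, 0 fell, 37 were tested without passing and 13 had no adjusted p. The share of risen genes was 2.63% of the 38 tested, beside 1.01% of all 10748 genes tested, where 0.0558% fell. A count of 1 gene gives this share no precision. At an unadjusted p under 0.05, 5 of 51 lay above 0, or 9.80% beside 6.01% of all genes with a p. Below 0 lay 0 of 51, beside 280 of all 16996 genes with a p. The gene that rose was again psmb2, by 2.00 on the log2 scale or 4.00-fold (adjusted p = 0.0492, SE 0.94), per the authors' deposited table. Its adjusted p was 0.0778 without a filter on low means and 0.0781 with recentred statistics, so this call rests on the choice of genes tested and on the centring.

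The CDK9 and MiR430 groups of the 1024-cell stage were compared with the same untreated libraries, so a low value of a gene there raises both fold changes. Side by side, psma6b had 2.42 under CDK9 and 1.24 (adjusted p = 0.125, SE 1.49) under MiR430 per the authors' deposited table. The scaffold gene psmd2 had 1.36 under CDK9 and 0.61 (adjusted p = 0.298, SE 0.95) under MiR430 per the authors' deposited table. The ATPase gene psmc2 had 1.43 and 0.45 (adjusted p = 0.397, SE 0.93) in that order per the authors' deposited table. The ATPase gene psmc4, which rose under CDK9, had 0.23 (adjusted p = 0.546, SE 0.56) under MiR430 per the authors' deposited table. The ubiquitin receptor gene psmd4a had 0.75 (adjusted p = 0.293, SE 0.97) under CDK9 and 0.59 (adjusted p = 0.316, SE 0.96) under MiR430 per the authors' deposited table. Differences between the injections were not tested.

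**Figure D4:**
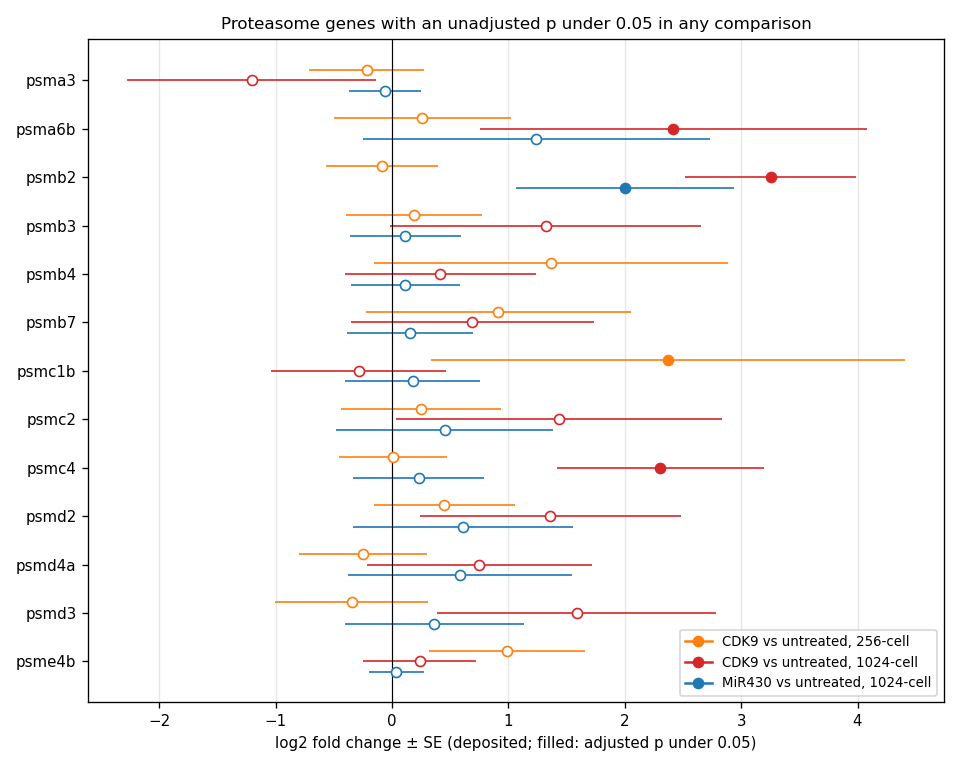
Deposited log2 fold changes of the 13 proteasome genes with an unadjusted p under 0.05 in any comparison, under CDK9 at the 256-cell stage (orange), CDK9 at the 1024-cell stage (red) and MiR430 at the 1024-cell stage (blue). Bars are ± 1 SE and filled points have an adjusted p under 0.05; the CDK9 and MiR430 values of the 1024-cell stage share their untreated libraries, and psmb2 is filled in both.

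Under MiR430 at the 256-cell stage 0 of 51 proteasome genes rose or fell, with 43 tested, per the authors' deposited table (DESeq2 is the one testing tool that the submitters' notes name). Over all genes 0.0323% rose and 0.0242% fell. In this comparison the log2 fold changes of the 51 genes lay between -0.0014 and 0.0022 per the authors' deposited table, which gives no size. At an unadjusted p under 0.05 there was 1 gene, psmd2 (unadjusted p = 0.0256, adjusted p = 1), per the authors' deposited table. It lay above 0, as did 1.46% of all genes with a p at that threshold.

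Zebrafish keep several proteasome genes as paralogs, which can be set against each other. The calls of the ATPase pair psmc1 and of the alpha ring trio psma6 lay on 1 copy each. Differences between copies were not tested, and both calls were lost without a filter on low means and with recentred statistics. Beside psmc1b, its paralog psmc1a (mean 26.8) had a log2 fold change of -0.17 (adjusted p = 0.763, SE 0.52) under CDK9 at the 256-cell stage per the authors' deposited table. Beside psma6b, psma6a (mean 4.68) had 0.33 (adjusted p = 0.63, SE 0.75) under CDK9 at the 1024-cell stage, and psma6l (mean 2.49) had -0.04 (SE 1.00) with no adjusted p per the authors' deposited table. The copies psmd11a and psmd11b of a lid gene had log2 fold changes of 0.07 (SE 0.39) and 0.05 (SE 0.38) under CDK9 at the 1024-cell stage per the authors' deposited table. The copies psmd4a and psmd4b of the receptor gene had nearly equal means, 13.3 and 13.7 per the authors' deposited table. Of the pair for the large activator PA200, psme4b had 3.77 times the mean of psme4a. The paralogs of each family lie on different chromosomes, and reads that fit more than one copy may be split between them.

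A pair of gene IDs was not taken by the name rule but is named PSMD2 and PSMA2 in the reference name table. The ID named PSMD2 lies on another unplaced scaffold than psmd2 and had a mean of 8.75 normalized counts, against 33.5 for psmd2, per the authors' deposited table. Whether it is a gene apart from psmd2 was not tested. Its log2 fold change under CDK9 at the 1024-cell stage was 0.22 (adjusted p = 0.759, SE 0.69) per the authors' deposited table. The second PSMA2 gene, on chromosome 19, had 0.52 (adjusted p = 0.463, SE 0.91) in the same comparison per the authors' deposited table, and psma2 had 0.17 (adjusted p = 0.808, SE 0.60). Exons of 3 of the 51 genes (psma2, psmd4a and psmd11b) share bases with another gene on the same strand, and those of 11 with a gene on the opposite strand.

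Genes that work with the proteasome but do not carry its name were counted from lists. These lists were chosen with earlier results of these data known, so their counts and medians are description only. Under CDK9 at the 1024-cell stage, the median log2 fold change of the tested genes was 0.14 for partners of the particle, 0.15 for ubiquitin supply and shuttling and 0.26 for regulators, beside 0.04 over all tested genes, of which 5.89% rose, per the authors' deposited table. With untested genes included, these medians were 0.08, 0.15 and 0.26, beside 0.05 over all genes. Of the 12 measured partners of the particle, 11 had an adjusted p under CDK9 at the 1024-cell stage, where 3 rose and 0 fell. At the 256-cell stage 9 had one and 0 passed, beside 5.04% risen over all genes tested, per the authors' deposited table of DESeq2 values. At an unadjusted p under 0.05, 0 of the 12 lay above or below 0 at that stage. Over all 16996 genes with a p, 7.98% lay above 0 and 347 genes below. The small lid subunit gene sem1 rose by 1.96 (adjusted p = 0.0433, SE 1.09) per the authors' deposited table. The zinc finger genes zfand5a and zfand5b, whose mammalian counterpart binds and stimulates the proteasome, rose by 2.87 (adjusted p = 0.00121, SE 0.73) and 1.59 (adjusted p = 0.0364, SE 0.82) per the authors' deposited table. Their means were 80.7 and 281 normalized counts, and that of sem1 was 22.9. Of the 2390 genes with a mean of at least 50, tested alone, 16.9% rose under CDK9 at the 1024-cell stage. Under MiR430 at the 1024-cell stage zfand5a rose by 1.97 (adjusted p = 0.0492, SE 0.91) per the authors' deposited table. The ubiquitin receptor gene adrm1 had 0.02 (adjusted p = 0.972, SE 0.35) under CDK9 at that stage per the authors' deposited table. The core assembly gene pomp had 0.48 (adjusted p = 0.514, SE 0.93) in the same comparison per the authors' deposited table.

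Of 31 genes that supply or carry ubiquitin, 28 had an adjusted p under CDK9 at the 1024-cell stage, where 4 rose and 0 fell, beside 5.89% risen over all genes tested. At the 256-cell stage 26 had one and 2 rose, beside 5.04%. Ubiquitin itself is encoded as fusions and repeats. Of those genes ubc rose by 1.98 (adjusted p = 0.000908, SE 0.48), ubb by 2.11 (adjusted p = 0.00357, SE 0.61) and rps27a by 2.52 (adjusted p = 0.00728, SE 0.84) at the 1024-cell stage per the authors' deposited table. Ubiquitin coding sequences resemble each other, so reads may be split between these genes. The shuttle gene ubqln4, which brings ubiquitinated proteins to the proteasome, rose under CDK9 by 1.58 (adjusted p = 0.0151, SE 0.91) at the 256-cell stage and by 2.97 (adjusted p = 0.000305, SE 0.67) at the 1024-cell stage per the authors' deposited table. It also rose under MiR430 at the 1024-cell stage, by 2.67 (adjusted p = 0.00658, SE 0.66), per the authors' deposited table. The deubiquitinase gene otub1a rose at the 256-cell stage under CDK9 by 2.41 (adjusted p = 0.0209, SE 1.77) per the authors' deposited table. Of the genes that rose under CDK9 at the 1024-cell stage, ubb, ubc and ubqln4 had means of 84.5, 300 and 92.0, and rps27a had 18.3. Of all genes with a mean of at least 50, tested alone, 16.9% rose in that comparison, so 5.89% is a low background for such genes.

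Of 20 regulators of proteasome genes and of their main transcription factor, 18 had an adjusted p under CDK9 at the 1024-cell stage and 2 rose, beside 5.89% risen over all genes tested. At the 256-cell stage 13 had one and 1 rose, beside 5.04%, and 0 fell at either stage. The gene vcp, for the segregase that extracts ubiquitinated proteins, rose by 2.56 (adjusted p = 0.000238, SE 0.56) at the 1024-cell stage per the authors' deposited table. Its mean was 84.1 normalized counts. Of all genes with a mean of at least 50, tested alone, 16.9% rose under CDK9 at the 1024-cell stage. The transcription factor gene nfe2l3 rose by 2.14 (adjusted p = 0.0386, SE 1.17) at that stage, and nfe2l2b by 4.09 (adjusted p = 0.0171, SE 3.07) at the 256-cell stage, per the authors' deposited table. The genes nfe2l1a and nfe2l1b encode the factor that raises proteasome genes when the proteasome is inhibited in mammals. They had log2 fold changes of 0.37 (adjusted p = 0.637, SE 0.99) and 0.43 (adjusted p = 0.564, SE 1.11) under CDK9 at the 1024-cell stage per the authors' deposited table. Under MiR430 at the 1024-cell stage 15 of these 20 genes had an adjusted p and 0 passed per the authors' deposited table of DESeq2 values, beside 1.01% risen over all genes tested. At an unadjusted p under 0.05, 3 of the 20 lay above 0, beside 6.01% of all genes with a p.

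**Figure D5:**
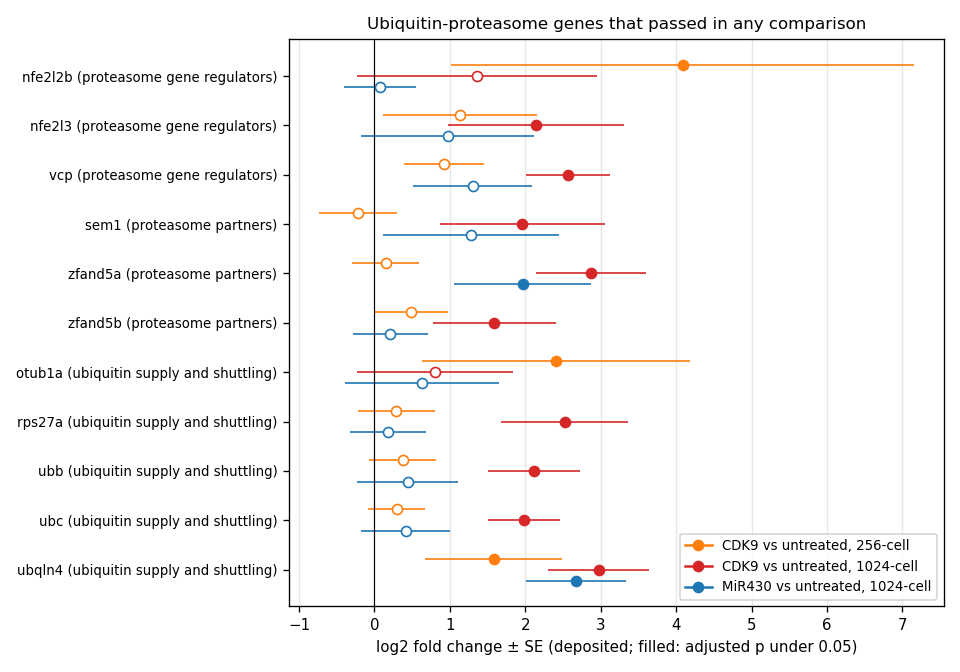
Deposited log2 fold changes of the 11 listed ubiquitin and proteasome genes without a psm name that passed in any comparison, under CDK9 at the 256-cell stage (orange), CDK9 at the 1024-cell stage (red) and MiR430 at the 1024-cell stage (blue). Bars are ± 1 SE and filled points have an adjusted p under 0.05; the genes were picked for passing, and the 1024-cell comparisons share their untreated libraries.

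Some genes listed as markers of cell layers or of germ plasm moved in the same comparisons. Values from whole embryos do not show which cells made the RNA. Under CDK9 at the 1024-cell stage, 2 of the 5 measured enveloping layer genes (klf17 and krt8) and 2 of 3 yolk syncytial layer genes (mxtx2 and gata3) rose, and 1 of 5 germ plasm genes (tdrd7a) fell. All of these had an adjusted p there, and over all genes tested 5.89% rose and 0.461% fell. Of all genes with a mean of at least 50, tested alone, 16.9% rose. The means of klf17, mxtx2 and gata3 were above 50, and that of krt8 was 21.4. At the 256-cell stage under CDK9, 3 of the 5 enveloping layer genes had an adjusted p and all 3 rose, and 2 of 3 yolk syncytial layer genes rose, beside 5.04% of all genes tested. Of the 5 germ plasm genes 4 had an adjusted p at that stage and 0 passed, per the authors' deposited table of DESeq2 values. At an unadjusted p under 0.05, 0 of the 5 lay above or below 0. Over all 16996 genes with a p, 7.98% lay above 0 and 347 genes below. The part of the marker genes in the proteasome values was not tested.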

How the data were processed

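The submitters' processing notes name Trimmomatic, HISAT, SAMtools, Picard, featureCounts, DESeq2 and the build GRCz11, and their versions were not given in the sources used here. Deposited files are a count table and 4 comparison tables. From the count table only symbols, coordinates, strand and exon length were taken, because its 18 per-library columns match no sample label. The authors deposited for each gene a signal, its mean normalized count over libraries. Shrinkage of the authors' log2 fold changes was inferred from their values and not tested. The p-values are those the authors deposited, and adjusting them by Benjamini-Hochberg over the genes with an adjusted p gave the same values. The authors' own call (adjusted p under 0.01 and absolute log2 fold change above 2) had 0 mismatches.

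The planned count tests, the untreated stage comparison and the promoter motif search were not run, because column names match no label and no sequences were used here. The difference between stages was computed from log2 fold changes and SE, with a two-sided normal p. Its calculation was tested on simulated estimates that were not shrunken, so that check does not cover shrunken ones. The difference between stages is approximate if the estimates are shrunken, as their values look. At an unadjusted p under 0.05 it took in 1.91% of all genes, against 5.996% by signed z statistics, so it was the more conservative. Alternatives were the authors' call, no filter on low means, a mean of at least 50 or, added after seeing the data, 10, and statistics recentred on their median. Named were all called genes, those at an unadjusted p under 0.05, abundant genes of each role, paralogs, and called genes of the lists. Members and lists were chosen with earlier results of these data known. Symbols follow the deposited table, and all 51 IDs matched the reference name table. Calculations used matplotlib 3.10.9, scipy 1.17.1, pandas 2.3.3 and numpy 2.4.6 in Python 3.11.15.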

Additional observations from a re-analysis of the deposited data

How the results depend on the processing

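Counts of risen proteasome genes were small and depended on the choice of genes tested. For CDK9 at the 256-cell stage the count went from 1 to 0 without a filter on low means, with a mean of at least 50, with recentred statistics and under the authors' call. For MiR430 at the 1024-cell stage it went from 1 to 0 under the same 4 alternatives. Without a filter and with recentred statistics, the share risen over all genes was lower too. For CDK9 at the 256-cell stage it was 2.09% and 3.31% in that order, in place of 5.04%. For MiR430 at the 1024-cell stage it was 0.471% and 0.716%, in place of 1.01%. In both comparisons, a mean of at least 50 and the authors' call could give no other result. The genes called there, psmc1b and psmb2, have means under 50 and were left untested by that filter. Their adjusted p values in these comparisons were also above the authors' stricter cut from the start. For CDK9 at the 1024-cell stage the count went from 3 to 0 with a mean of at least 50, where 2 of the 51 genes could be tested. It went to 1 (psmb2) under the authors' call. These results were fixed from the start too. The 3 called genes have means under 50, and the adjusted p values of psma6b and psmc4 were above the stricter cut. The count was 2 (psmb2 and psmc4) without a filter, of 51 genes tested, and with recentred statistics, of 43. Over all genes 3.41% and 4.42% rose in that order. The count was 3 of 26 genes tested with a mean of at least 10, where 8.34% of all genes rose. That alternative was chosen after seeing the data. In these alternatives 0 proteasome genes fell. Between stages 0 proteasome genes passed by signed z statistics or among genes with means from 50 or from 10 upwards. In the latter set psmb2 had an adjusted p of 0.06. Over all genes, the authors' call gave 226 risen in place of 460 and 311 in place of 690 for CDK9 at the 256-cell and 1024-cell stages, and 21 in place of 109 for MiR430 at the 1024-cell stage. With a mean of at least 50, 405 rose in place of 690, but 2390 genes were tested in place of 11724, so the share risen was 16.9% in place of 5.89%. No paired analysis was possible because the count columns carry no replicate label that matches a sample, and leaving out replicates or running another count tool was not run for the same reason. Low means limit every value: 26 of 51 genes reached a mean of 10.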
